A study of Mus musculus with 12 samples.

Results

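The histone-modifying enzymes described here are 66 mouse genes whose symbols begin with Kdm, Kmt, Kat followed by a digit, Hdac, Setd, Prmt, Ehmt, Ezh or Suv. After 3 pseudogenes were left out, 71 of the 55401 genes in the deposited table had such a symbol. A gene also had to reach 10 normalized counts in at least 3 of the 12 libraries, and 66 did. The rule used this level and no contrast between groups, and all 66 had at least 10 normalized counts in every one of the 12 libraries. The weakest of them was Kdm8, with a mean of 42.2 and a lowest value of 28.0 normalized counts. Outside the rule were Kdm6bos, which reached 10.1 in 1 library, Kdm4d (highest value 4.15), Kdm4dl (2.03), Hdac11 (1.04) and Prmt8, which is listed at 0. A normalized count is the read count of a gene divided by 1 size factor per library.

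The cells were bone-marrow-derived macrophages of C57BL/6J mice with the genotype Irx3-/-, differentiated for 7 days with 20 nM M-CSF, the growth factor of the macrophage lineage. Adeno-associated virus (AAV) brought in IRX3_S389A, IRX3_S361A, wild-type IRX3 (IRX3_WT) or, as the control, GFP, and each construct had 3 libraries. S389A and S361A each stand for a serine changed to alanine. IRX3 is a homeodomain protein that binds DNA, 1 of the Iroquois class. Every library, GFP included, lacks the endogenous gene and was given 100 ng/ml lipopolysaccharide (LPS), a bacterial cell-wall component sensed by a Toll-like receptor, during 4 h, so no unstimulated or wild-type macrophages enter any comparison. The labels give neither the promoter of the constructs nor the source of the replicates, so p-values measure only the spread between these libraries, which may be technical. Recovered reads ranged from 17149058 to 20108002 per library, and the shared dispersion estimated by edgeR gave a biological coefficient of variation of 0.0508.

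Irx3, the transgene, separated GFP from the other constructs. It averaged 187 ± 20.2 normalized counts in IRX3_S389A, 349 ± 21.5 in IRX3_S361A and 177 ± 16.3 in IRX3_WT libraries, and was at 0 in all 3 GFP libraries (SD, n = 3). In any comparison with IRX3_S361A, the changed serine and the higher transgene level are therefore confounded. Counts per gene do not show a point mutation, so they do not check which IRX3 construct a library holds. The 10 macrophage markers, of which 0 were at 0 in any group, summed to 409720 to 423080 normalized counts in IRX3_S389A, 434180 to 446950 in IRX3_S361A and 404650 to 410870 in IRX3_WT, against 374300 to 385530 in GFP libraries. Against GFP 9, 7 and 6 of them passed in IRX3_S389A, IRX3_S361A and IRX3_WT, with log2 changes of -1.37 to 0.76. Of all genes tested 35%, 25.9% and 39.6% passed in these comparisons. B-cell markers (6 genes) summed to 13.1 to 24.8 in IRX3_S389A, 17.1 to 29.8 in IRX3_S361A and 17.7 to 33.0 in IRX3_WT, against 35.6 to 47.3 in GFP libraries. Stromal markers (8 genes, collagens and platelet-derived growth factor receptors among them) summed to 209 to 221 in IRX3_S389A, 136 to 201 in IRX3_S361A, 245 to 263 in IRX3_WT and 90.2 to 124 in GFP libraries. Neutrophil markers (10 genes) summed to 33.5 to 51.3 in IRX3_S389A, 28.3 to 49.7 in IRX3_S361A and 43.2 to 64.4 in IRX3_WT libraries. GFP libraries had 26.7 to 41.8 of these. T-cell and natural killer cell markers (9 genes) summed to 147 to 166 in IRX3_S389A, 127 to 155 in IRX3_S361A and 129 to 152 in IRX3_WT libraries. In GFP libraries they summed to 122 to 123. Of the B-cell, stromal, neutrophil and T-cell lists only 1, 3, 2 and 3 genes reached the level to be tested. In IRX3_WT vs GFP the tested stromal genes had log2 changes of -0.33 to 1.41, with 1 called. All 3 lay above GFP in IRX3_S389A and in IRX3_S361A. The tested T-cell and natural killer cell genes changed by -0.07 to 1.28 in IRX3_WT vs GFP, with 1 called. The part of these differences in the results was not tested, and in bulk RNA fewer cells of a type and less RNA per cell cannot be told apart.

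Histone-modifying enzymes add or remove chemical groups on the tails of the proteins around which DNA is wrapped. Methylation of histone H3 at lysine 4 (H3K4) marks promoters and enhancers in use, whereas methylation at lysine 9 (H3K9) or lysine 27 (H3K27) marks silent chromatin. Methylation of H3K36 follows transcribed gene bodies, and that of histone H4 at lysine 20 (H4K20) accompanies the cell cycle and compact chromatin. Acetyl groups, set by lysine acetyltransferases and removed by deacetylases (HDACs), accompany active transcription. In macrophages stimulated through Toll-like receptors, such enzymes open and close inflammatory genes, and the H3K27 demethylase gene Kdm6b is a known target of LPS signalling.

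The proximal promoters of 4 members, chosen after their values were seen, were read from the RefSeq promoter table (GRCm38.p6), which held 54 of the 66 members. They are shown as examples in each direction whose RNA differed between constructs, Kmt5c because its promoter holds 1 of the motifs searched. Setdb2 and Kdm4a were higher, and Hdac5 and Kmt5c lower, with each IRX3 construct against GFP. Each run ends 1 base before the annotated start of the transcript, or earlier where an annotated exon begins, and is written 5′ to 3′ on the strand of the gene. For Setdb2 only bases 250 to 143 before the start are shown. Exons of Setdb2 and of another gene, Cab39l, lie in the rest of that window.
Setdb2, chr14:59441023-59441130, minus strand: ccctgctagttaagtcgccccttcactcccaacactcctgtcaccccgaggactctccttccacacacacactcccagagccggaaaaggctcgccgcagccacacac
Kdm4a, chr4:118180044-118180293, minus strand: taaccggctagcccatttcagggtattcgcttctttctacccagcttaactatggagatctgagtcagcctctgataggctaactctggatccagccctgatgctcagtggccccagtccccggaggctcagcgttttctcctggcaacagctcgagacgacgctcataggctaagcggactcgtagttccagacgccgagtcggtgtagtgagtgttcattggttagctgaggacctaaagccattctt
Hdac5, chr11:102230173-102230422, minus strand: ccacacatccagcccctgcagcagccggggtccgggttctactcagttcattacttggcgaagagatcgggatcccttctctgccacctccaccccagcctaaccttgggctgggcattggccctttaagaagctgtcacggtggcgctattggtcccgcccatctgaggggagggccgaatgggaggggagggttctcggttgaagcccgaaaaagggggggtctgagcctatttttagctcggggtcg
Kmt5c, chr7:4739877-4740114, plus strand: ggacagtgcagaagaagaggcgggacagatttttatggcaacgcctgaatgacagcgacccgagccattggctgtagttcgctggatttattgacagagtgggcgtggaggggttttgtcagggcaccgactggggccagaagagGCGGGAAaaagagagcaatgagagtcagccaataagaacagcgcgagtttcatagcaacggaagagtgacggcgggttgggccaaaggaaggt
Capitals mark TTCCCGC, a recognition sequence of the E2F cell-cycle factors, here read on the opposite strand.

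Recognition sequences were searched on both strands of the 250 bases before the start. ACANNTGT, the palindrome bound by Iroquois proteins, was found in the windows of 1 of 54 members (Ehmt2), against 4.108% of the 9493 promoters of tested genes. TTCCCGC was in 3 of 54 (Kmt5c, Prmt1 and Suv39h2) and in 8.164% of them. A kappaB motif was in 2 members (Hdac9 and Setdb1) and 1.822% of promoters of tested genes, and an interferon response motif in 1 (Kat5) and 3.561%. Over all 27025 promoters of the table the shares were 7.197%, 4.381%, 1.654% and 3.463%. A match is a description of the letters and not a bound site, and its absence from this window says nothing about the factor.

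Across the 4 constructs, 36 of 66 members (54.55%) differed by the moderated F test of limma, against 44.2% of the 13369 genes tested. In IRX3_WT against GFP libraries 39 members passed (limma, Benjamini-Hochberg over all genes tested, threshold 0.05), 19 higher and 20 lower, against a background of 39.6% of genes (21% higher, 18.6% lower). The groups of 3 did not overlap for 40 members, against 48.4% of genes. In IRX3_S361A against GFP 26 members passed (11 higher, 15 lower; background 25.9%, 14.9% higher and 10.9% lower), with 26 not overlapping (39.6%). In IRX3_S389A against GFP 28 passed (10 higher, 18 lower; background 35%, 18.8% higher and 16.2% lower), with 35 not overlapping (46.4%). Among genes with at least 10 normalized counts in all 12 libraries, as all members have, the backgrounds were 43.1%, 28.6% and 38.4%. With the deposited size factors the members' own shares were 59.09% in IRX3_WT, 39.39% in IRX3_S361A and 42.42% in IRX3_S389A. That of IRX3_S389A was the nearest to its background, although 27.27% of members were lower there against 16.16% of genes.

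Scaling moved the split by direction and, except in IRX3_WT vs GFP (39), the number called. The deposited size factors leave the GFP libraries with lower totals than the others. With libraries scaled to equal totals, the median of all genes moved to -0.18 (IRX3_WT vs GFP), -0.11 (IRX3_S361A vs GFP) and -0.17 (IRX3_S389A vs GFP) on the log2 scale. The members then split into 6 higher and 33 lower in IRX3_WT, 2 higher and 20 lower in IRX3_S361A, and 5 higher and 40 lower in IRX3_S389A against GFP. All genes tested split into 10.43% higher and 41.28% lower in IRX3_WT under equal totals, against 20.98% and 18.57% under the deposited scaling. Under equal totals they split into 7.832% and 24.13% in IRX3_S361A, and into 9.978% and 40.37% in IRX3_S389A. Called then were 59.09% of members in IRX3_WT (51.72% of genes), 33.33% in IRX3_S361A (31.96%) and 68.18% in IRX3_S389A (50.35%). With this scaling the IRX3_S361A share was the nearest to its background. Against GFP, changes therefore lie lower under equal totals, while in IRX3_S361A vs IRX3_WT the median of all genes moved up, to 0.07.

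**Figure D1:**
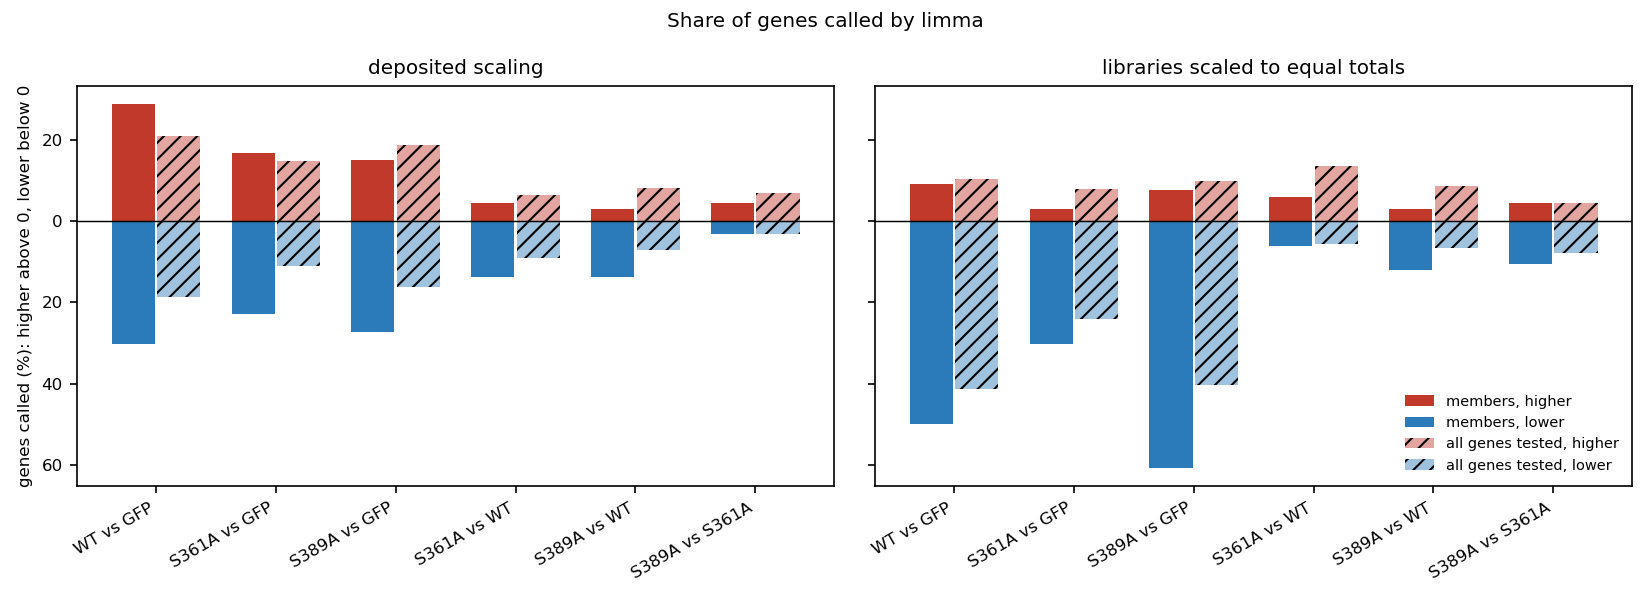
Share of genes (%) called higher (above 0) or lower (below 0) by limma in 6 comparisons, for the 66 members (solid) and all 13369 genes tested (hatched), with the deposited size factors (left) and libraries scaled to equal totals (right). The members' shares move with those of all genes: under equal totals 9.091% of members were higher and 50% lower in IRX3_WT vs GFP.

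Few changes of members were large, though the share of all genes at the same fold was not counted. Of the members called, 7, 3 and 6 changed by at least 1.5-fold with IRX3_WT, IRX3_S361A and IRX3_S389A against GFP, and the median absolute log2 change of called members was 0.32, 0.33 and 0.41. Those of at least 1.5-fold were Hdac5, Hdac10, Kat2a, Kat14, Kdm2b, Kdm6b and Kmt5c in IRX3_WT, Hdac5, Hdac9 and Kdm2b in IRX3_S361A, and Hdac5, Hdac10, Kdm2b, Kmt5c, Setd4 and Setdb2 in IRX3_S389A. The 3 comparisons share the GFP libraries, so their values for a member are given side by side below and are not independent. In no comparison was any of 23 members called: Ezh1, Hdac2, Hdac3, Hdac6, Hdac7, Hdac8, Kat8, Kdm2a, Kdm3b, Kdm4c, Kdm5d, Kdm6a, Kdm8, Kmt2c, Prmt1, Prmt2, Prmt6, Setd2, Setd3, Setd5, Setd6, Suv39h1 and Suv39h2. This holds for the deposited scaling: with equal totals 17 of the 23 were called lower than GFP in at least 1 comparison, and Hdac7, Hdac8, Kdm8, Prmt6, Setd3 and Suv39h2 were not called. The share of all genes called in no comparison was not counted, so the 23 cannot be set against a background. Counts by enzyme role below cover few genes each and were not tested against all genes. In IRX3_WT vs GFP the shares of all genes to set beside them are 21% higher and 18.6% lower. With equal totals these are 10.43% and 41.28%.

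**Figure D2:**
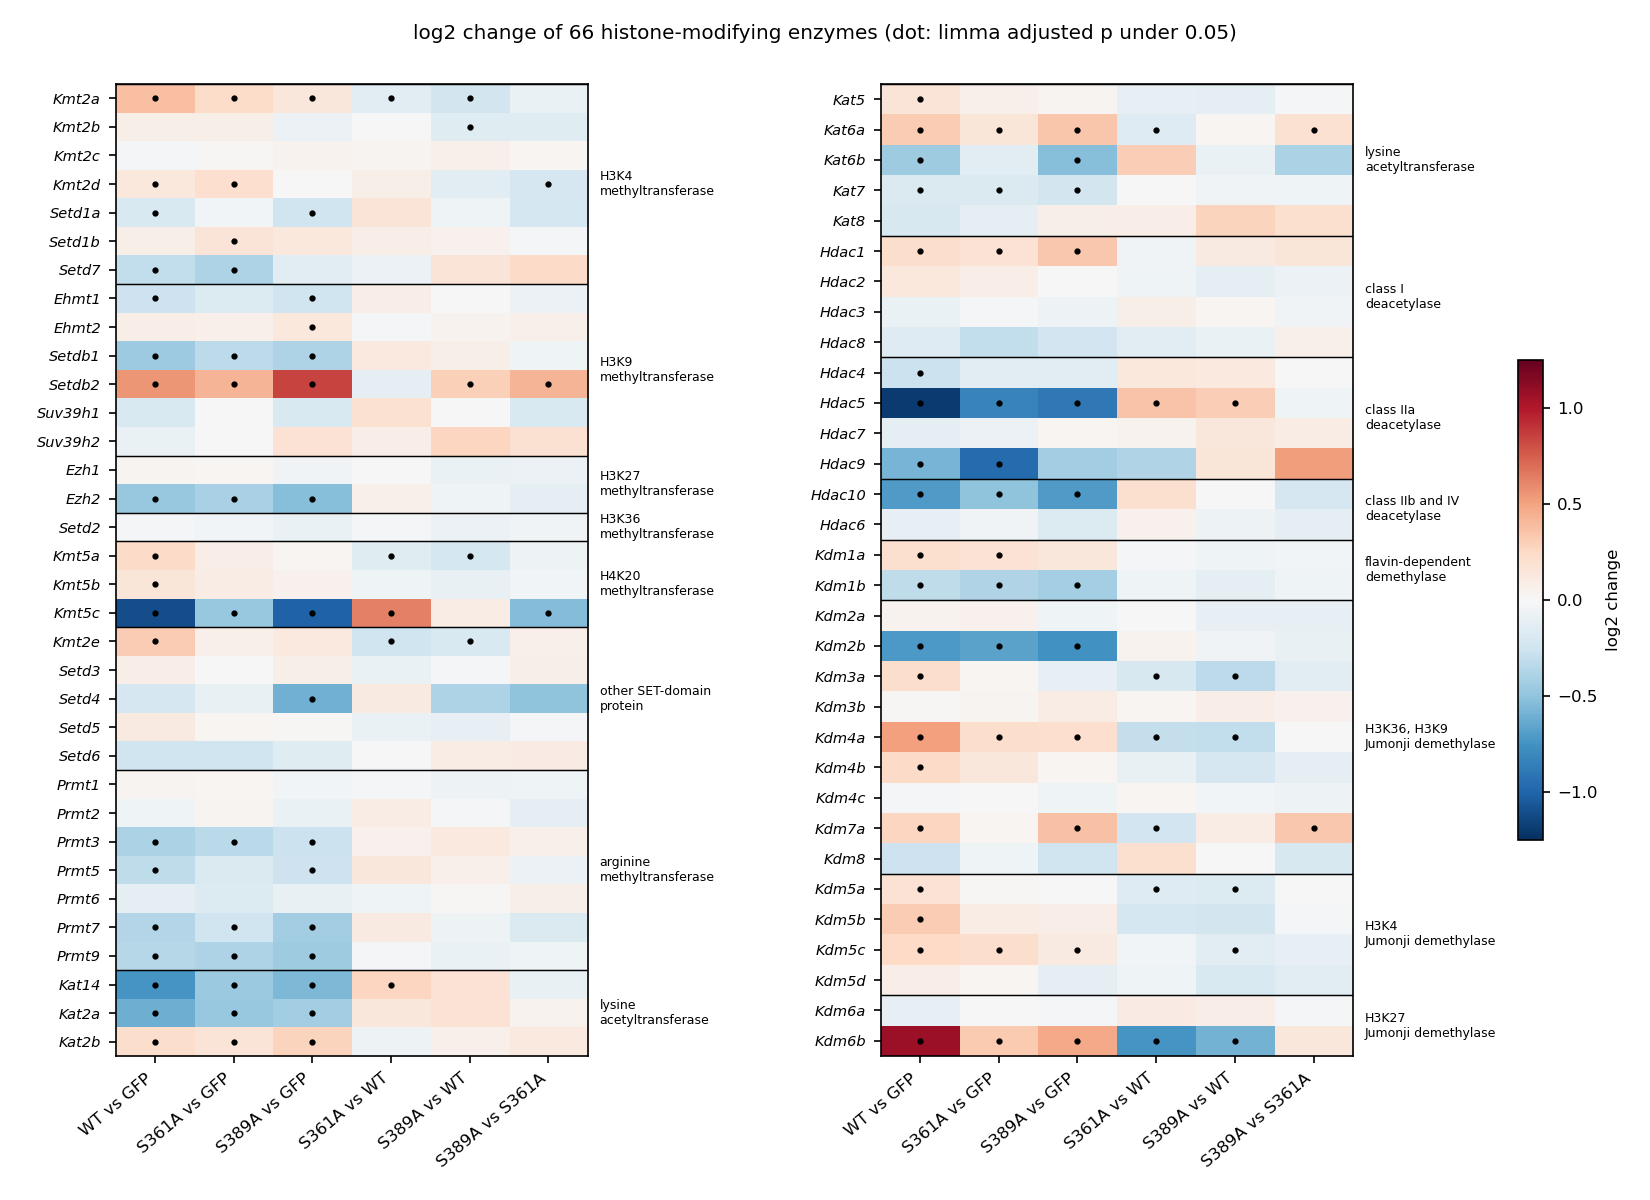
Fitted log2 change of the 66 members (rows, grouped by enzyme role) in 6 comparisons (columns), red for higher and blue for lower in the first-named construct, with a dot where the limma adjusted p was under 0.05. Kdm6b (1.07) has the deepest red and Hdac5 (-1.20) the deepest blue in the IRX3_WT vs GFP column.

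Kdm6b and Ezh2 act on the same residue in opposite senses. Kdm6b (ENSMUSG00000018476.7, chromosome 11, 69398508 to 69413675, GRCm38) encodes JMJD3, which removes methyl groups from H3K27. It had 1460, 1532 and 1524 normalized counts in IRX3_S389A libraries and 1399, 1484 and 1223 in IRX3_S361A libraries. In IRX3_WT libraries it had 2441, 2055 and 2343, against 1167, 1040 and 1051 in GFP libraries. IRX3_WT stood above every other library, and both mutants lay between IRX3_WT and GFP without overlapping either. The log2 change was 1.07 (SE 0.07, limma adjusted p = 3.11e-13) for IRX3_WT vs GFP, 0.47 (1.68e-06) for IRX3_S389A and 0.33 (0.000319) for IRX3_S361A. Against IRX3_WT it was -0.59 in IRX3_S389A (limma adjusted p = 2.65e-07) and -0.74 in IRX3_S361A (4.55e-09). These 5 calls held with every library left out and with equal totals. The mutants themselves did not pass (log2 difference of IRX3_S389A vs IRX3_S361A 0.14, 95% interval 0.01 to 0.28, limma adjusted p = 0.203). Exons of the antisense gene Kdm6bos cover 4.11% of its exon bases. Its relative Kdm6a, the X-linked H3K27 demethylase, was called in no comparison (log2 changes -0.10 to 0.10), but with equal totals it was lower than GFP in IRX3_S389A (-0.18) and IRX3_WT (-0.28).

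Ezh2 (ENSMUSG00000029687.16, chromosome 6, 47530139 to 47595341), the catalytic subunit of Polycomb repressive complex PRC2, which methylates H3K27, was lower with every construct. It had 294, 275 and 323 normalized counts in IRX3_S389A, 338, 301 and 333 in IRX3_S361A and 329, 308 and 291 in IRX3_WT libraries, against 445, 405 and 435 in GFP libraries. All 9 libraries with IRX3 lay below the 3 GFP libraries, and the IRX3 groups overlapped each other. The log2 change was -0.53 (SE 0.09, limma adjusted p = 6.94e-06) in IRX3_S389A, -0.40 (0.000492) in IRX3_S361A and -0.47 (3.93e-05) in IRX3_WT against GFP. Ezh1, the other catalytic subunit, was called in no comparison, with log2 changes between -0.08 and 0.04, but with equal totals it too was lower than GFP in IRX3_S389A (-0.21) and IRX3_WT (-0.14). Of 30 subunits of PRC2 and PRC1 from a separate list, 8 were higher and 5 lower in IRX3_WT vs GFP. That is 43.3% of the list, near the 39.6% of all genes.

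Among the 6 H3K9 methyltransferases, 1 was higher and 2 were lower in IRX3_WT vs GFP (1 higher and 3 lower with equal totals). Setdb2 (ENSMUSG00000071350.12, chromosome 14, 59402009 to 59440884), whose promoter opens the sequences above, is known in macrophages as an interferon-induced gene. It had 2167, 2192 and 2100 normalized counts in IRX3_S389A and 1638, 1554 and 1636 in IRX3_S361A libraries. IRX3_WT libraries had 1799, 1800 and 1670, against 1244, 1222 and 1130 in GFP libraries. No 2 groups overlapped, and IRX3_S389A was the highest. Against GFP the log2 change was 0.85 (SE 0.05, limma adjusted p = 9.25e-17) in IRX3_S389A, 0.43 (9.77e-09) in IRX3_S361A and 0.55 (7.87e-12) in IRX3_WT. IRX3_S389A was also above IRX3_WT (0.29, limma adjusted p = 3.45e-05) and above IRX3_S361A (0.42, 1.29e-07), and these 5 calls held with each library left out and with equal totals. IRX3_S361A vs IRX3_WT did not pass (-0.13, 0.0836).

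Setdb1 (ENSMUSG00000015697.14, chromosome 3, 95323525 to 95357202), which trimethylates H3K9 and keeps endogenous retroviruses silent, went the other way. It had 552, 584 and 538 normalized counts in IRX3_S389A, 575, 624 and 543 in IRX3_S361A and 539, 599 and 464 in IRX3_WT libraries, against 731, 744 and 711 in GFP libraries. Every library with IRX3 was below every GFP library, and the 3 IRX3 groups overlapped. Relative to GFP the log2 change was -0.39 in IRX3_S389A (limma adjusted p = 8.89e-05), -0.33 in IRX3_S361A (0.000939) and -0.46 in IRX3_WT (5.98e-06). Ehmt1, partner of Ehmt2 in the complex that sets H3K9 mono- and dimethylation, was lower in IRX3_S389A (-0.25) and IRX3_WT (-0.26), and with equal totals also in IRX3_S361A (-0.29). Its IRX3_S389A call was lost without IRX3_S389A replicate 2 (limma adjusted p = 0.0736) or GFP replicate 3 (0.103), and its IRX3_WT call without IRX3_WT replicate 2 (0.0712) or GFP replicate 3 (0.0859). Ehmt2 passed in IRX3_S389A vs GFP (0.13, limma adjusted p = 0.0382). In 4 of 12 fits without 1 library it did not (up to 0.186, without IRX3_S389A replicate 2), and with equal totals its sign turned (-0.04). Suv39h1 and Suv39h2, the enzymes of pericentric heterochromatin, were called in no comparison, but with equal totals Suv39h1 was lower than GFP in IRX3_S389A (-0.36) and IRX3_WT (-0.37).

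Of 7 H3K4 methyltransferases 2 were higher and 2 lower in IRX3_WT vs GFP, and 1 higher and 3 lower with equal totals. Kmt2a (ENSMUSG00000002028.13, chromosome 9, 44803355 to 44881296), also known as MLL1, had 2116, 2242 and 2087 normalized counts in IRX3_S389A and 2364, 2241 and 2211 in IRX3_S361A libraries. In IRX3_WT it had 2600, 2368 and 2573, against 2062, 1806 and 1963 in GFP libraries. IRX3_WT was above both mutants and GFP in every library. Fitted against GFP, the log2 change was 0.37 in IRX3_WT (SE 0.05, limma adjusted p = 8.69e-08), 0.23 in IRX3_S361A (0.000501) and 0.15 in IRX3_S389A (0.0201). The last was lost without IRX3_S389A replicate 2 (limma adjusted p = 0.123) or GFP replicate 2 (0.195), and with equal totals it was -0.02, while IRX3_S361A gave 0.11 (0.0789). Against IRX3_WT it was lower in IRX3_S389A (-0.23, limma adjusted p = 0.00118) and in IRX3_S361A (-0.14, 0.0419), where the call was lost in 5 of 12 fits without 1 library (up to 0.182, without IRX3_WT replicate 1) and with equal totals (0.272).

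Kmt2d (ENSMUSG00000048154.17, chromosome 15, 98831669 to 98871204), which monomethylates H3K4 at enhancers, had 3666, 3703 and 3260 normalized counts in IRX3_S389A and 4047, 4065 and 4130 in IRX3_S361A libraries. IRX3_WT libraries had 3974, 3632 and 4028, against 3666, 3264 and 3670 in GFP libraries. The IRX3_S361A libraries were the highest, and the other groups overlapped one another. Kmt2d was lower in IRX3_S389A than in IRX3_S361A (-0.21, limma adjusted p = 0.00516), a call lost without IRX3_S389A replicate 3 (0.06). It was higher than GFP in IRX3_S361A (0.21, limma adjusted p = 0.00155) and in IRX3_WT (0.14, 0.0303). Neither of these passed with equal totals (0.154 and 0.518), where the IRX3_WT value turned to -0.04, and the IRX3_WT call was lost without IRX3_WT replicate 1 (0.118), IRX3_WT replicate 3 (0.139) or GFP replicate 2 (0.25). Setd7 was lower in IRX3_S361A (-0.39) and IRX3_WT (-0.31), the second being lost in 3 of 12 fits without 1 library (limma adjusted p up to 0.0791, without GFP replicate 3). Setd1a was lower in IRX3_S389A (-0.25) and IRX3_WT (-0.19), but other annotated genes cover 52.3% of its exon bases and the counting strand is not known. Without GFP replicate 3 neither Setd1a call passed (0.0584 in IRX3_S389A and 0.165 in IRX3_WT), and the IRX3_WT call was lost in 4 of 12 such fits. Setd1b was higher in IRX3_S361A vs GFP (0.16), not with equal totals (0.534), and Kmt2b was lower in IRX3_S389A vs IRX3_WT (-0.15), a call lost with equal totals (0.0588) and in 7 of 12 fits without 1 library (up to 0.218, without IRX3_S389A replicate 3). With equal totals Kmt2b was lower in IRX3_S389A than in GFP (-0.24) and IRX3_S361A (-0.20), and Kmt2d lower than GFP in IRX3_S389A (-0.17). The highest adjusted p of Setd1b with a library left out was 0.153, without GFP replicate 2.

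All 3 H4K20 methyltransferases were called in IRX3_WT vs GFP, 2 higher and 1 lower, where 39.6% of all genes were called. Kmt5c (ENSMUSG00000059851.15, chromosome 7, 4740115 to 4747514), which trimethylates H4K20 in heterochromatin, had 102, 110 and 84.3 normalized counts in IRX3_S389A and 153, 137 and 140 in IRX3_S361A libraries. In IRX3_WT it had 99.4, 78.9 and 99.0, against 204, 196 and 196 in GFP libraries. IRX3_S361A lay between GFP and the other 2 groups without overlapping any of them, while IRX3_S389A and IRX3_WT overlapped. The log2 change against GFP was -1.01 (SE 0.14, limma adjusted p = 1.31e-07) in IRX3_S389A, -0.47 (0.00831) in IRX3_S361A and -1.10 (1.7e-08) in IRX3_WT. IRX3_S361A was above IRX3_WT by 0.63 (limma adjusted p = 0.000876), and IRX3_S389A was below IRX3_S361A by a log2 change of -0.54 (0.00676, or 0.0678 without IRX3_S389A replicate 3). IRX3_S389A vs IRX3_WT did not pass (0.09, 95% interval -0.18 to 0.37). Kmt5a, which monomethylates H4K20 and varies with the cell cycle, was higher in IRX3_WT vs GFP (0.24), and Kmt5b was higher there by 0.15. With equal totals neither rise passed (limma adjusted p = 0.24 and 0.696), Kmt5b turned to -0.03, and the call of Kmt5b was lost in 4 of 12 fits without 1 library (up to 0.132, without GFP replicate 2). Kmt5a was then lower in IRX3_S389A vs GFP (-0.14).

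Of 7 arginine methyltransferases 4 were lower and 0 higher in both IRX3_WT and IRX3_S389A vs GFP, and 3 were lower in IRX3_S361A vs GFP. With equal totals 6 of 7 were lower and 0 higher in IRX3_S389A and IRX3_WT, and 4 lower in IRX3_S361A. Of all genes tested 16.2%, 10.9% and 18.6% were lower in IRX3_S389A, IRX3_S361A and IRX3_WT against GFP. With equal totals these shares were 40.37%, 24.13% and 41.28%. Prmt3, which methylates a ribosomal protein, was lower by -0.27, -0.34 and -0.39 on the log2 scale in IRX3_S389A, IRX3_S361A and IRX3_WT against GFP. Prmt7, which monomethylates arginine, changed by -0.43, -0.25 and -0.37 in IRX3_S389A, IRX3_S361A and IRX3_WT, and Prmt9 by -0.44, -0.39 and -0.36. Prmt5, the main enzyme of symmetric dimethylation, averaged 466 ± 3.39 normalized counts in IRX3_S389A and 446 ± 19.3 in IRX3_WT against 558 ± 46.9 in GFP libraries (SD, n = 3). Its log2 change was -0.25 (limma adjusted p = 0.00787) and -0.32 (0.00075), and the IRX3_S389A call was lost without GFP replicate 3 (0.0905). In fits without 1 library the call of Prmt7 in IRX3_S361A was lost in 3 of 12 (limma adjusted p up to 0.275, without IRX3_S361A replicate 2) and that of Prmt9 in IRX3_WT in 2 (up to 0.0632, without IRX3_WT replicate 2). Prmt1, which makes most asymmetric dimethylarginine, Prmt2 and Prmt6 were called in no comparison, but with equal totals Prmt1 and Prmt2 were lower than GFP in IRX3_S389A (-0.20 and -0.25) and IRX3_WT (-0.14 and -0.23). Between the IRX3 constructs 0 of the 7 were called under either scaling.

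Of 8 lysine acetyltransferases, 3 were higher and 4 lower in IRX3_WT vs GFP (1 higher and 5 lower with equal totals). Kat2a (ENSMUSG00000020918.14, chromosome 11, 100704746 to 100712465) and Kat2b encode the related acetyltransferases GCN5 and PCAF, which replace each other in the SAGA and ATAC complexes. Kat2a had 501, 515 and 537 normalized counts in IRX3_S389A, 535, 454 and 524 in IRX3_S361A and 427, 511 and 436 in IRX3_WT libraries, against 749, 672 and 676 in GFP libraries. Every library with IRX3 was below every GFP library. Its log2 change against GFP was -0.43 (limma adjusted p = 2.45e-05) in IRX3_S389A, -0.47 (8.88e-06) in IRX3_S361A and -0.61 (3.19e-08) in IRX3_WT. Kat2b was higher by 0.28, 0.16 and 0.22 in IRX3_S389A, IRX3_S361A and IRX3_WT, but no longer with equal totals (limma adjusted p = 0.101, 0.575 and 0.567). Its IRX3_S361A call was also lost in 4 of 12 fits without 1 library (up to 0.173, without GFP replicate 3).

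Kat14 (ENSMUSG00000027425.18, chromosome 2, 144368983 to 144407676), another acetyltransferase of the ATAC complex, had 351, 341 and 398 normalized counts in IRX3_S389A, 369, 382 and 411 in IRX3_S361A and 328, 309 and 323 in IRX3_WT libraries, against 526, 503 and 581 in GFP libraries. All libraries with IRX3 were below GFP, and IRX3_WT was below both mutants. Relative to GFP the log2 change was -0.56 (limma adjusted p = 8e-07), -0.47 (2.81e-05) and -0.74 (1.89e-09) in IRX3_S389A, IRX3_S361A and IRX3_WT. IRX3_S361A was above IRX3_WT by 0.27 (limma adjusted p = 0.0198), a call lost without IRX3_WT replicate 2 (0.0659) or IRX3_S361A replicate 3 (0.111). Pet117 covers 14.7% of its exon bases, and without the strand setting reads in that stretch cannot be assigned.

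Kat6a (ENSMUSG00000031540.14, chromosome 8, 22859535 to 22943259), also known as MOZ, acetylates histone H3 and is needed for blood stem cells. It had 2815, 2986 and 2811 normalized counts in IRX3_S389A and 2537, 2547 and 2450 in IRX3_S361A libraries. IRX3_WT libraries had 2920, 2661 and 2865, against 2326, 2226 and 2227 in GFP libraries. IRX3_S389A and IRX3_WT overlapped, IRX3_S361A lay below both, and GFP was the lowest. Against GFP the log2 change was 0.35 (limma adjusted p = 4.31e-08) in IRX3_S389A, 0.15 (0.00838) in IRX3_S361A and 0.32 (2.15e-07) in IRX3_WT, and with equal totals the IRX3_S361A rise no longer passed (0.531). IRX3_S389A was above IRX3_S361A (0.19, limma adjusted p = 0.00262) and IRX3_S361A was below IRX3_WT (-0.16, 0.00789). The second of these was lost without IRX3_WT replicate 1 (0.062) or IRX3_S361A replicate 3 (0.0524), and with equal totals (0.108). Its relative Kat6b was lower in IRX3_S389A (-0.53) and IRX3_WT (-0.45), calls lost without IRX3_S389A replicate 1 (0.0902), and without IRX3_WT replicate 1 (0.0801) or GFP replicate 1 (0.0556).

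Kat7, which acetylates histone H3 at replication origins, was lower with all 3 constructs (-0.23, -0.18 and -0.18 in IRX3_S389A, IRX3_S361A and IRX3_WT). The IRX3_S361A call was lost in 4 of 12 fits without 1 library (limma adjusted p up to 0.15, without IRX3_S361A replicate 2) and the IRX3_WT call in 2 (up to 0.0922, without GFP replicate 1). Kat5, the TIP60 acetyltransferase, was higher in IRX3_WT vs GFP (0.16, limma adjusted p = 0.0455). That call was lost in 7 of 12 fits without 1 library (up to 0.198, without GFP replicate 3), and with equal totals it turned to -0.02. Kat8, which acetylates H4 at lysine 16, was called in no comparison, but with equal totals it was lower in IRX3_WT vs GFP (-0.37).

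Class IIa deacetylases, which shuttle between nucleus and cytoplasm and repress through partner proteins, were lower or not called. In IRX3_WT vs GFP 3 of 4 were lower, in IRX3_S361A 2 and in IRX3_S389A 1, and with equal totals 3 were lower (Hdac4, Hdac5 and Hdac9) with each of the constructs. Among all genes 18.6%, 10.9% and 16.2% were lower in IRX3_WT, IRX3_S361A and IRX3_S389A, and 41.28%, 24.13% and 40.37% with equal totals. Hdac5 (ENSMUSG00000008855.17, chromosome 11, 102194432 to 102230166) had the largest fall of all members in IRX3_WT. It had 319, 296 and 271 normalized counts in IRX3_S389A, 327, 295 and 298 in IRX3_S361A and 232, 207 and 282 in IRX3_WT libraries, against 535, 536 and 574 in GFP libraries. The highest library with IRX3 was well below the lowest GFP library, and IRX3_WT lay below IRX3_S361A in each library. Fitted against GFP, the log2 change was -0.89 (SE 0.10, limma adjusted p = 1.02e-09) in IRX3_S389A, -0.84 (8.39e-09) in IRX3_S361A and -1.20 (4.84e-13) in IRX3_WT. Hdac5 was above IRX3_WT in IRX3_S361A (0.36, limma adjusted p = 0.00768) and IRX3_S389A (0.31, 0.0268), but without IRX3_WT replicate 2 neither passed (0.0839 in IRX3_S361A and 0.19 in IRX3_S389A), the IRX3_S361A call had 0.05 without IRX3_S361A replicate 1, and the IRX3_S389A call was lost in 4 of 12 such fits.

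Hdac9 (ENSMUSG00000004698.11, chromosome 12, 34047580 to 34917095), the least expressed member per length of transcript, had 84.7, 61.4 and 67.1 normalized counts in IRX3_S389A and 60.7, 41.7 and 45.2 in IRX3_S361A libraries. In IRX3_WT it had 57.1, 72.7 and 61.4, against 86.3, 93.9 and 108 in GFP libraries. Each IRX3 group lay below GFP, and IRX3_WT overlapped both mutants. The log2 change against GFP was -0.44 (SE 0.19, limma adjusted p = 0.069) in IRX3_S389A, -0.96 (0.000109) in IRX3_S361A and -0.58 (0.0119) in IRX3_WT, and the last was lost without IRX3_WT replicate 1 (0.0565) or GFP replicate 3 (0.0714). IRX3_S389A vs IRX3_S361A did not pass (0.53, 95% interval 0.15 to 0.91, limma adjusted p = 0.0694). The fall of Hdac9 in IRX3_S389A passed with equal totals (-0.60). Hdac4 was lower in IRX3_WT (-0.27), and with equal totals also in IRX3_S389A (-0.31) and IRX3_S361A (-0.25). Its IRX3_WT call was lost without IRX3_WT replicate 1 (limma adjusted p = 0.106) or GFP replicate 3 (0.0979), and another annotated gene covers 22.4% of its exon bases.

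Hdac10 (ENSMUSG00000062906.12, chromosome 15, 89123307 to 89128700), a class IIb enzyme known to deacetylate polyamines, had 147, 130 and 104 normalized counts in IRX3_S389A, 119, 156 and 163 in IRX3_S361A and 124, 112 and 143 in IRX3_WT libraries. GFP libraries had 199, 220 and 199, above all of these. Relative to GFP the log2 change was -0.71 (limma adjusted p = 8.4e-05) in IRX3_S389A, -0.50 (0.00554) in IRX3_S361A and -0.70 (8.02e-05) in IRX3_WT, and the IRX3_S361A call was lost without IRX3_S361A replicate 1 (0.0696). Among class I deacetylases, Hdac1 was higher with all 3 constructs. It averaged 1302 ± 30.7, 1168 ± 22.8 and 1204 ± 69.3 normalized counts in IRX3_S389A, IRX3_S361A and IRX3_WT, against 1032 ± 13.8 in GFP libraries (SD, n = 3), with log2 changes of 0.33, 0.18 and 0.22. With equal totals the IRX3_S361A and IRX3_WT rises of Hdac1 did not pass (limma adjusted p = 0.362 and 0.506). Hdac2, Hdac3, Hdac8, Hdac6 and Hdac7 were called in no comparison, but with equal totals Hdac2 (-0.16), Hdac3 (-0.23) and Hdac6 (-0.34) were lower in IRX3_S389A vs GFP, and Hdac3 (-0.26) and Hdac6 (-0.28) in IRX3_WT vs GFP.

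Demethylases of H3K9 and H3K36 with a Jumonji domain held 4 higher and 1 lower of 9 members in IRX3_WT vs GFP, and 1 higher and 3 lower with equal totals. Kdm4a (ENSMUSG00000033326.15, chromosome 4, 118136957 to 118180043), which removes trimethylation at both residues, had 1878, 1932 and 2008 normalized counts in IRX3_S389A and 2138, 1879 and 1846 in IRX3_S361A libraries. IRX3_WT libraries had 2409, 2442 and 2330, against 1748, 1614 and 1659 in GFP libraries. IRX3_WT was above both mutants, which overlapped each other and lay above GFP. Against GFP the log2 change was 0.21 (limma adjusted p = 0.000927) in IRX3_S389A, 0.22 (0.000857) in IRX3_S361A and 0.52 (SE 0.05, 7.16e-11) in IRX3_WT. Against IRX3_WT it was -0.30 in both IRX3_S389A (limma adjusted p = 3.02e-05) and IRX3_S361A (3.93e-05). All 5 calls held with each library left out. With equal totals the rises of both mutants over GFP did not pass (0.494 and 0.1), whereas both differences from IRX3_WT did.

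Kdm2b (ENSMUSG00000029475.17, chromosome 5, 122870665 to 122989823), which binds unmethylated CpG islands and recruits a variant PRC1 complex, was the member that fell in this group. It had 259, 242 and 285 normalized counts in IRX3_S389A, 308, 257 and 270 in IRX3_S361A and 246, 266 and 298 in IRX3_WT libraries, against 456, 466 and 409 in GFP libraries. The 3 IRX3 groups overlapped one another, and each lay below GFP. Fitted against GFP, the log2 change was -0.76 (SE 0.10, limma adjusted p = 3.63e-08) in IRX3_S389A, -0.67 (7.53e-07) in IRX3_S361A and -0.72 (1.05e-07) in IRX3_WT. Among the IRX3 constructs it did not pass (IRX3_S361A vs IRX3_WT 0.04, 95% interval -0.15 to 0.24, and IRX3_S389A vs IRX3_WT -0.04, -0.24 to 0.15). Other annotated genes cover 8.74% of its exon bases.

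Kdm7a (ENSMUSG00000042599.8, chromosome 6, 39136623 to 39206789), a demethylase of dimethylated H3K9 and H3K27, had 1876, 1892 and 2079 normalized counts in IRX3_S389A and 1403, 1592 and 1638 in IRX3_S361A libraries. In IRX3_WT it had 1900, 1715 and 1850, against 1550, 1435 and 1563 in GFP libraries. IRX3_S389A and IRX3_WT overlapped at the top, and IRX3_S361A overlapped GFP. The log2 change against GFP was 0.36 (limma adjusted p = 2.28e-06) in IRX3_S389A, 0.02 (95% interval -0.09 to 0.14) in IRX3_S361A and 0.26 (0.000224) in IRX3_WT. IRX3_S389A was above IRX3_S361A by 0.34 (limma adjusted p = 5.02e-05), and IRX3_S361A below IRX3_WT (-0.24, 0.00226). Both of these held with each library left out and with equal totals, where the IRX3_WT rise over GFP did not (0.196).

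Kdm3a (ENSMUSG00000053470.13, chromosome 6, 71588972 to 71632990), a hypoxia-induced demethylase of mono- and dimethylated H3K9, had 609, 581 and 581 normalized counts in IRX3_S389A, 605, 700 and 636 in IRX3_S361A and 734, 697 and 794 in IRX3_WT libraries. GFP libraries had 656, 626 and 622. IRX3_WT was above GFP and IRX3_S389A, and IRX3_S361A overlapped IRX3_WT and GFP. IRX3_S389A was below IRX3_WT (-0.33, limma adjusted p = 0.000609), a call that held with each library left out. IRX3_S361A was also below IRX3_WT (-0.20, limma adjusted p = 0.0426) but not in 5 of 12 fits without 1 library (up to 0.219, without IRX3_S361A replicate 1) and not with equal totals (-0.13, 0.179). With equal totals IRX3_S389A was also below GFP (-0.27). IRX3_WT was above GFP (0.22, limma adjusted p = 0.00815), which was lost without IRX3_WT replicate 3 (0.0691), and with equal totals (0.603). Kdm4b was higher in IRX3_WT vs GFP (0.24), but not in 3 of 12 fits without 1 library (limma adjusted p up to 0.102, without IRX3_WT replicate 3) and not with equal totals (0.546).

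The 4 H3K4 demethylases of the Kdm5 family held 3 higher and 0 lower in IRX3_WT vs GFP, but 0 called with equal totals. The share of all genes called higher there was 21%, and 10.43% with equal totals. Kdm5c (ENSMUSG00000025332.14, chromosome X, 152233020 to 152274535) had 2958, 2881 and 2855 normalized counts in IRX3_S389A and 3264, 3120 and 2976 in IRX3_S361A libraries. IRX3_WT libraries had 3195, 3134 and 3251, against 2719, 2583 and 2752 in GFP libraries. GFP was the lowest group, and IRX3_S361A overlapped IRX3_WT. Relative to GFP the log2 change was 0.11 (limma adjusted p = 0.0409) in IRX3_S389A, 0.22 (0.000125) in IRX3_S361A and 0.25 (7.81e-06) in IRX3_WT. With equal totals these became -0.06 (limma adjusted p = 0.251), 0.10 (0.0603) and 0.07 (0.144), and the IRX3_S389A call was lost in 4 of 12 fits without 1 library (up to 0.199, without GFP replicate 2). IRX3_S389A was below IRX3_WT (-0.14, limma adjusted p = 0.0205), which was lost in 3 of 12 such fits (up to 0.0788, without IRX3_WT replicate 3). Kdm5a and Kdm5b were higher in IRX3_WT vs GFP (0.18 and 0.32), calls lost with equal totals and, in other fits, without GFP replicate 2 (0.068) for Kdm5a and in 3 of 12 fits without 1 library for Kdm5b (up to 0.168, without IRX3_WT replicate 3). With equal totals Kdm5a was lower in IRX3_S389A vs GFP (-0.16), as was Kdm5d on the Y chromosome (-0.28), which was otherwise called in no comparison.

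The flavin-dependent pair moved apart in IRX3_WT vs GFP. Kdm1a, the H3K4 demethylase LSD1, was higher in IRX3_S361A (0.18) and IRX3_WT (0.20), and Kdm1b was lower in all 3 constructs (-0.43, -0.38 and -0.32 in IRX3_S389A, IRX3_S361A and IRX3_WT). With equal totals the 2 rises of Kdm1a did not pass (limma adjusted p = 0.425 and 0.806). In IRX3_WT the Kdm1a call was lost without IRX3_WT replicate 1 (0.0687) and the Kdm1b call in 4 of 12 fits without 1 library (up to 0.0692, without GFP replicate 1). In IRX3_S361A the Kdm1a call was lost in 3 (up to 0.114, without IRX3_S361A replicate 1) and the Kdm1b call in 2 (up to 0.0678, without the same library). Of the other SET-domain proteins, Kmt2e, which is not known to methylate histones itself, was higher in IRX3_WT vs GFP (0.31, limma adjusted p = 6.81e-06). Setd4 was lower in IRX3_S389A alone (-0.60, limma adjusted p = 0.0335), which was lost in 4 of 12 fits without 1 library (up to 0.239, without IRX3_S389A replicate 3). Setd2, the enzyme of H3K36 trimethylation, was called in no comparison (log2 changes -0.09 to -0.01), but with equal totals it was lower than GFP in IRX3_S389A (-0.25), IRX3_S361A (-0.15) and IRX3_WT (-0.19).

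**Figure D3:**
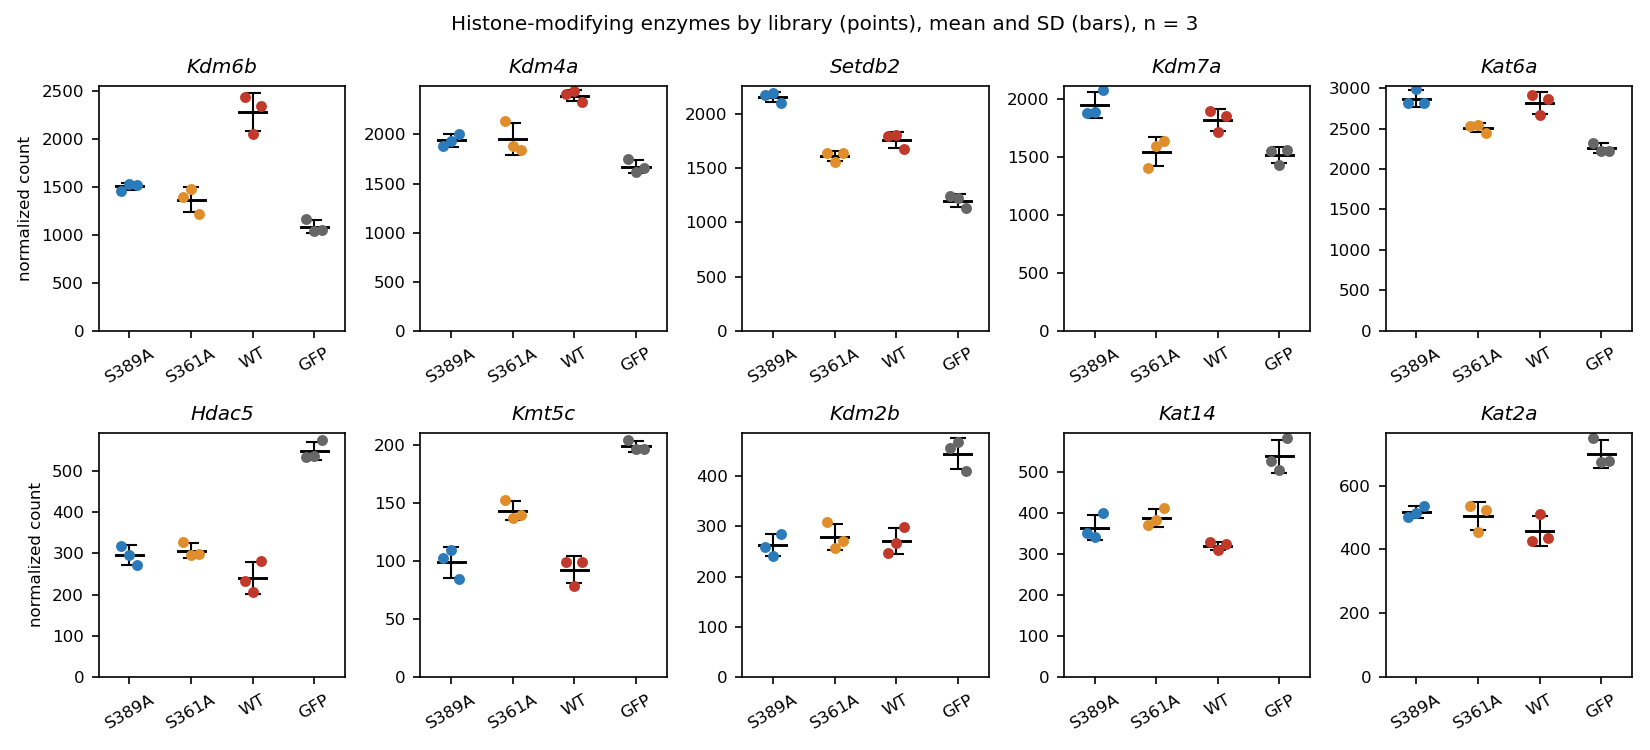
Normalized counts of 10 members in each library (points), with the mean (line) and SD (whiskers) of 3 libraries per construct, on linear axes that start at 0. Kdm6b is highest in IRX3_WT, Setdb2 in IRX3_S389A, and the 5 genes of the lower row are highest in GFP.

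Direct comparison of the mutants with IRX3_WT asks which member levels differ between constructs that differ by 1 serine. In IRX3_S361A the transgene level was higher as well, at 349 ± 21.5 normalized counts against 177 ± 16.3 in IRX3_WT (SD, n = 3). The serine and that level cannot be told apart there. In IRX3_S361A vs IRX3_WT 12 members passed, 3 higher and 9 lower, against a background of 15.5% of genes (6.43% higher, 9.07% lower), and 17 did not overlap (29.3%). In IRX3_S389A vs IRX3_WT 11 passed, 2 higher and 9 lower (background 15.3%, 8.21% higher and 7.08% lower), and 20 did not overlap (29.1%). With equal totals the splits were 4 higher and 4 lower in IRX3_S361A, and 2 higher and 8 lower in IRX3_S389A. All genes then split into 13.5% higher and 5.64% lower in IRX3_S361A, and 8.759% and 6.538% in IRX3_S389A. Both comparisons share the IRX3_WT libraries. Kmt2e changed by -0.19 in IRX3_S389A and -0.25 in IRX3_S361A, Kmt5a by -0.22 and -0.15, and Kdm5a by -0.17 and -0.16. The IRX3_S361A falls of Kmt5a (-0.09, limma adjusted p = 0.175) and Kdm5a (-0.10, 0.197) did not pass with equal totals. In fits without 1 library, the call was lost for Kmt2e in IRX3_S389A in 3 of 12 (limma adjusted p up to 0.0964, without IRX3_WT replicate 3) and for Kmt5a in IRX3_S361A in 3 (up to 0.16, without IRX3_S361A replicate 1). That of Kdm5a was lost in IRX3_S389A in 3 (up to 0.174, without IRX3_S389A replicate 1) and in IRX3_S361A in 4 (up to 0.198, without IRX3_S361A replicate 1). Without IRX3_WT replicate 1, and likewise without IRX3_S361A replicate 3, 7 members passed in IRX3_S361A vs IRX3_WT, and without IRX3_WT replicate 3 also 7 passed in IRX3_S389A vs IRX3_WT.

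The mutants differed from each other for 5 members, 3 higher and 2 lower, against a background of 10.2% of genes (7% higher, 3.16% lower). Setdb2, Kdm7a and Kat6a were higher and Kmt2d and Kmt5c lower in IRX3_S389A vs IRX3_S361A, and 18 members did not overlap (25.9%). None of the 5 changed by 1.5-fold or more. With equal totals the same 5 passed among 10 members called (15.15% of members, against 12.34% of genes). In all of them the transgene level differed as well, with 187 ± 20.2 normalized counts of Irx3 in IRX3_S389A and 349 ± 21.5 in IRX3_S361A libraries (SD, n = 3), and its part in the difference was not tested.

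The members called higher and those called lower differed in abundance. In IRX3_WT vs GFP the median level was 1560 normalized counts for the 19 higher members, 345 for the 20 lower and 576 for the 27 not called. Per kilobase of exon the medians were 188, 47.8 and 98.9. Over all genes with at least 10 normalized counts in all 12 libraries, the medians were 1506 for higher, 320 for lower and 299 for genes not called. Across the 66 members the log2 change correlated with the level (Spearman 0.709, a description over genes that share the same 12 libraries), against 0.307 over 11673 such genes. Correlations with exon length (0.185) and transcript GC content (-0.155) were weaker. The same correlation with level was 0.647 in IRX3_S389A and 0.717 in IRX3_S361A vs GFP.

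**Figure D4:**
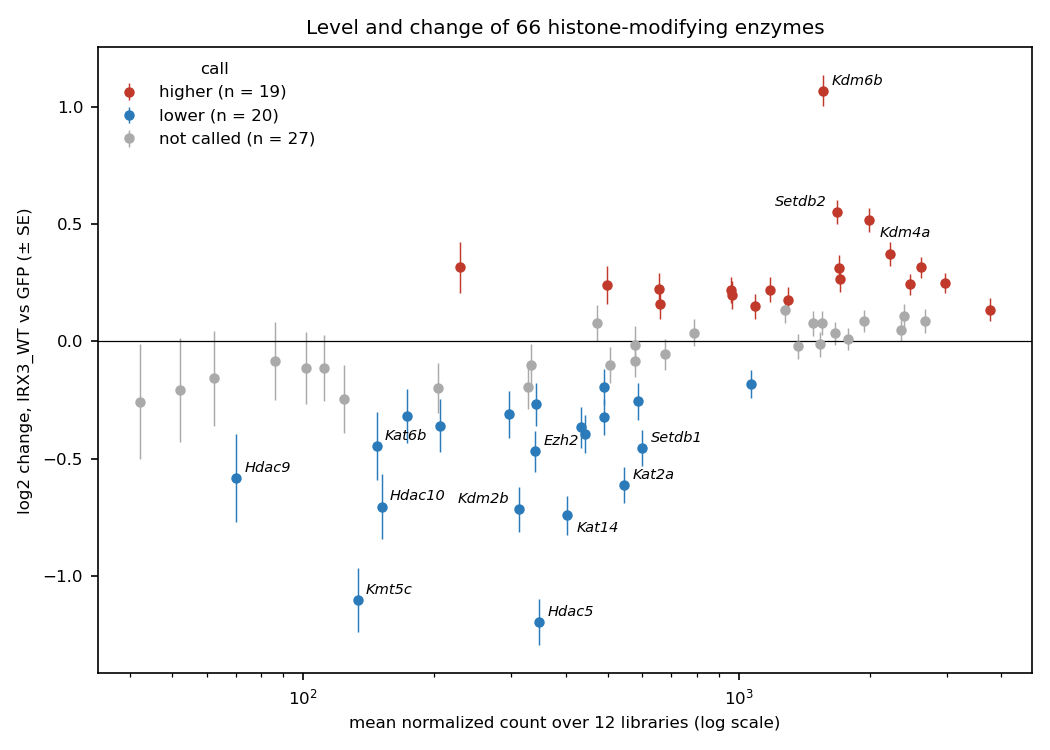
Log2 change in IRX3_WT vs GFP (vertical, with SE) of the 66 members against their mean normalized count over 12 libraries (horizontal, log scale), coloured by call, with members beyond 0.4 named. Higher members (median level 1560) lie to the right of lower ones (345), and Kdm6b, Hdac5 and Kmt5c stand out from the trend.

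Genes that work with these enzymes were counted from lists chosen separately. Of 31 tested histone enzymes with other names, such as Ep300 and Nsd2, 8 were higher and 8 lower in IRX3_WT vs GFP (median log2 change 0.03), which is 51.6% of the list against 39.6% of all genes. Nsd2, which dimethylates H3K36, averaged 756 normalized counts in IRX3_S389A, 841 in IRX3_S361A and 694 in IRX3_WT, against 1368 in GFP libraries. Of 35 subunits of acetyltransferase complexes 7 were higher and 7 lower, of 30 subunits of deacetylase corepressors 9 higher and 7 lower, and of 11 COMPASS subunits, which serve the H3K4 methyltransferases, 3 higher and 3 lower. These are 40%, 53.3% and 54.5% of the lists, so the first was near the 39.6% of all genes. Of 15 bromodomain readers and DNA methylation genes 4 were higher and 6 lower (66.7%). Among them the maintenance methyltransferase gene Dnmt1 was at -1.09 and Uhrf1 at -1.05. Of 24 DNA replication genes, 21 passed as lower in IRX3_S389A vs GFP (median log2 change -0.34), 11 in IRX3_S361A (-0.11) and 21 in IRX3_WT (-0.37), where 2 passed as higher. Called in either direction were 87.5%, 45.8% and 95.8% of this list, against 35%, 25.9% and 39.6% of all genes. Ezh2, a known target of E2F factors, was lower in the same comparisons, and the part of cell cycling in its fall was not tested.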

How the data were processed

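Total RNA of 12 libraries was sequenced. The submitters' processing notes list HISAT2 2.1.0, StringTie 1.3.5, Trimmomatic without a version, and mm10. Which counter, strand setting, annotation and normalizing tool made the table is not given in the sources used. Although named raw counts, the deposited signal is a read count over 1 size factor in each library, as tested on the values: 100% were whole multiples of 1 step (tolerance 1e-06). In 3 columns the step lay within 1% of 1, so whole reads are claimed for 9 libraries. Deposited totals were 17325311 to 19796325.

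The members and gene lists were chosen with earlier results of these data known. Genes reaching 10 in at least 3 libraries (13369) were fitted with limma 3.58.1 (trend, robust, R 4.3.3) on log2(value + 1), all 12 libraries in 1 fit, with Benjamini-Hochberg adjustment and a threshold of 0.05; the pseudocount understates folds of low genes. Because the values are not raw counts, limma was the test, and edgeR 4.0.16 and DESeq2 1.42.0 on recovered reads were alternatives. The procedure was tested on simulated data. Symbols, exons and overlaps came from GENCODE M21 (GRCm38), which matched 55141 of 55401 IDs. Per-library values were printed for the 14 members with the smallest F-test p and the 4 largest called changes of each comparison, 18 in all.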

Additional observations from a re-analysis of the deposited data

How the results depend on the processing

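The direction of the 121 calls (a member in a comparison) was kept in all of 2541 refits but 6, and 212 refits kept the direction without passing the threshold. Leaving out 1 library at a time gave 31 to 40 members called in IRX3_WT vs GFP, 23 to 30 in IRX3_S389A vs GFP, 21 to 26 in IRX3_S361A vs GFP, 7 to 11 in IRX3_S389A vs IRX3_WT, 7 to 12 in IRX3_S361A vs IRX3_WT, 5 to 6 in IRX3_S389A vs IRX3_S361A and 31 to 36 over the 4 constructs. In every such fit 22 of 39, 20 of 28, 19 of 26, 6 of 11, 5 of 12 and 3 of 5 calls were kept, in the same order. With libraries scaled to equal totals, 45 members were called in IRX3_S389A vs GFP in place of 28, and 10 in IRX3_S389A vs IRX3_S361A in place of 5. The sign then turned, without a call, for Kat5 (-0.0167), Kmt2d (-0.0417) and Kmt5b (-0.0279) in IRX3_WT vs GFP and for Ehmt2 (-0.0400), Kdm5c (-0.0589) and Kmt2a (-0.0235) in IRX3_S389A vs GFP. With edgeR on the 9 libraries with recovered reads, an alternative chosen after seeing the data, 16 members were called in IRX3_S361A vs GFP in place of 26 and 3 in IRX3_S389A vs IRX3_S361A in place of 5; it leaves 1 IRX3_S361A library, assumed to vary like the others.

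Libraries with the same replicate number did not deviate together (18 pairs, r between -0.041 and 0.0297, and 3 of 12 libraries were closest to their own number). No pairing by number was therefore visible, and the main fit used none. A shared source with a small effect could look the same, and the labels do not give the source. With the replicate block, 39, 28, 26, 10, 11, 5 and 35 members were called in the order above. The lowest value of any member was 28.0 normalized counts, against a floor of 2.67 to 3.41 (3 reads, counting error only).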

Other observations

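Pairs of related enzymes were set against each other within each library, where size factors cancel, so that a ratio does not depend on scaling. Each value was first divided by the exon length of its gene. The ratios therefore differ from those of the normalized counts printed above. The 8 pairs were picked after their values had been seen, and the exact permutation test (two-sided) of 3 against 3 libraries cannot go below p = 0.1, which all 8 reached in IRX3_WT vs GFP. Per library, Setdb2 over Setdb1 was 6.54 ± 0.16 in IRX3_S389A, 4.71 ± 0.455 in IRX3_S361A and 5.61 ± 0.505 in IRX3_WT, against 2.78 ± 0.0951 in GFP libraries (SD, n = 3). Kat2b over Kat2a was 1.43 ± 0.0435, 1.36 ± 0.133 and 1.56 ± 0.107 in IRX3_S389A, IRX3_S361A and IRX3_WT, against 0.874 ± 0.0154 in GFP libraries. Kmt5a over Kmt5c was 18.2 ± 2.99 in IRX3_S389A, 11.4, 14.1 and 13.5 in the 3 IRX3_S361A libraries and 22.5 ± 2.55 in IRX3_WT, against 8.76 ± 0.189 in GFP libraries. Kdm6b over Kdm6a was 3.55 ± 0.121, 3.20 ± 0.362 and 5.73 ± 0.704 in IRX3_S389A, IRX3_S361A and IRX3_WT, against 2.54 ± 0.113 in GFP libraries, and Kdm2a over Kdm2b was 6.49 ± 0.564, 6.59 ± 0.748 and 6.74 ± 0.233 in those constructs, against 3.98 ± 0.378 in GFP libraries. Ezh1 over Ezh2 was 2.31 ± 0.232, 2.23 ± 0.123 and 2.35 ± 0.138 in IRX3_S389A, IRX3_S361A and IRX3_WT, against 1.65 ± 0.0561 in GFP libraries. A ratio shows that the pair changed unequally, not that either member was constant.

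The first principal component of the 66 members held 58.1% of their variance. The GFP libraries lay at 1.79 or above on it and all libraries with IRX3 at 0.017 or below. The same component over all genes is not given here, and 44.2% of genes tested differed by the F test. The separation therefore cannot be called particular to the members.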
